A study of Mus musculus with 94 samples.

Results

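The DNA repair genes described here are 32 genes of nucleotide excision, base excision, mismatch and double-strand break repair, chosen by name. Every probe that the platform annotation assigns to one of them was taken, which gave 58 of the 25697 probes on the array. They cover 31 of the 32 genes, 15 with 1 probe and 16 with several, and Ercc6 was not analysed here. By role these are 12 genes of nucleotide excision repair with 20 probes, 10 of base excision repair with 22 probes, 2 of mismatch repair with 3 probes and 7 of double-strand break repair with 13 probes. Where a gene has several probes they are numbered from the brightest, by mean intensity over all arrays.

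The samples were brains, livers, spleens and thymuses of male C57BL/6N mice aged 17 weeks. Mutants of Hmgn1, Hmgn3 or Hmgn5, which the series describes as homozygous, were set against wild types of the same line, which makes 3 lines. Each line, tissue and genotype had 4 arrays from separate mice, but wild-type liver had 3 in both the Hmgn1 and the Hmgn5 line, and the 94 arrays came from 24 mice. The labels do not state the kind of mutation, and 1 wild-type mouse was placed in the Hmgn5 line by elimination. Hmgn1, Hmgn3 and Hmgn5 encode high mobility group N proteins, which bind nucleosomes and loosen chromatin.

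Nucleotide excision repair removes bulky lesions such as ultraviolet photoproducts: the proteins of Xpc, Rad23b, Cetn2, Ddb1 and Ddb2 find the damage, those of Ercc3 and Ercc2 open the DNA, and those of Ercc5 and of Ercc1 with Ercc4 cut on either side. Base excision repair starts with glycosylases such as those of Ung, Ogg1 and Mutyh and ends with a ligase, mismatch repair corrects errors of replication, and double-strand breaks are joined by Ku, a dimer of the Xrcc5 and Xrcc6 products, with Prkdc and Lig4, or copied from the sister chromatid with Brca1 and Brca2. In developing thymocytes the Ku pathway also joins the breaks of V(D)J recombination. In mouse cells HMGN1 has been linked to the repair of ultraviolet damage.

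The deposited values are normalized, background-subtracted intensities, and a probe counted as above noise where it exceeded 1.64 times the noise of its array, which is the root mean square of the values below 0. Per array 12245 to 16430 probes and 30 to 53 of the 58 repair probes passed that limit. Values below are means ± SD of arrays. Differences are of log2(intensity + 16), given with the standard error (SE), a scale that understates the change of dim probes, and levels are compared only within a probe. The number of arrays limits the precision, and in whole tissue fewer cells of a type and less RNA per cell cannot be told apart. The targeted genes gave a mixed check of the labels. Hmgn3 fell by 1.78 on the log2 scale in spleen of the Hmgn3 line (limma adjusted p = 3.12e-10, the larger change of its 2 probes), passed as lower in brain and thymus too, and did not pass in liver (−0.57, SE 0.17, limma adjusted p = 0.719). In the Hmgn5 line Hmgn5 fell by 1.08 in thymus (limma adjusted p = 0.004) but rose by 0.59 in liver (limma adjusted p = 0.00181). Hmgn1 differed by −0.11 in spleen (SE 0.15, limma adjusted p = 0.74) and by −0.41 in thymus (SE 0.12, limma adjusted p = 0.284) of the Hmgn1 line and passed in no tissue. The sources used here do not say where these probes lie relative to the mutated stretch, and "mutant" below means an array labelled so.

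After joint normalization of the wild-type arrays the repair probes were most often brightest in thymus and dimmest in brain or liver. That order differed in the values as deposited. For this comparison the 46 wild-type arrays were quantile-normalized together, because the deposited sets of arrays had been normalized separately. Of the 58 probes 56 differed between the tissues, against 83.7% of all 22714 probes tested (limma F test, Benjamini-Hochberg adjusted p under 0.05, mouse as a random block). Of these 56 probes 30 were highest in thymus, 14 in spleen, 9 in liver and 3 in brain. How many of all probes were highest in each tissue was not counted. Thymus exceeded brain for 44 of 58 repair probes and fell below it for 3, while 38.0% of all probes were higher and 30% lower. Thymus exceeded spleen for 35 repair probes and fell below it for 9, against 26.6% and 21.8% of all probes. Spleen exceeded brain for 42 and fell below it for 8, against 35.9% and 31.5%. Liver exceeded brain for 24 and fell below it for 10, against 35.8% and 30.6%. Thymus exceeded liver for 37 and fell below it for 7, against 33.2% and 30.6%, and spleen exceeded liver for 30 and fell below it for 12, against 32.2% and 30.9%.

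The scaling sets part of these counts. In the values as deposited, all probes together stood lower in spleen than in brain by a median of −0.99 and lower in thymus than in brain by −0.71 on the log2 scale. On those values 43 of 56 repair probes were lower in spleen than in brain and 2 higher. Of all 21449 probes tested 16049 were lower and 1806 higher. In thymus against brain 31 repair probes were lower and 17 higher, where 14913 of all probes were lower and 2692 higher. Relative to the shift of all probes, 38 of 56 repair probes lay above it in thymus against brain and 32 of 56 in spleen against brain. Thymus against spleen kept its direction: 42 of 56 repair probes were higher in thymus as deposited and 2 lower. Of all 21449 probes 9980 were higher and 2238 lower, with a shift of 0.14. In both scalings 35 of 58 repair probes were higher in thymus. As deposited 33 of 56 repair probes were highest in brain, 20 in thymus, 2 in liver and 1 in spleen, and 34 were lowest in spleen. This tally was not made over all probes, whose median difference to brain was −0.40 in liver, −0.99 in spleen and −0.71 in thymus. The highest tissue was the same in both scalings for 24 of 56 probes. With the deposited values taken relative to the shift, the highest tissue was the same as in the joint scaling for 38 of 56 probes.

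**Figure D1:**
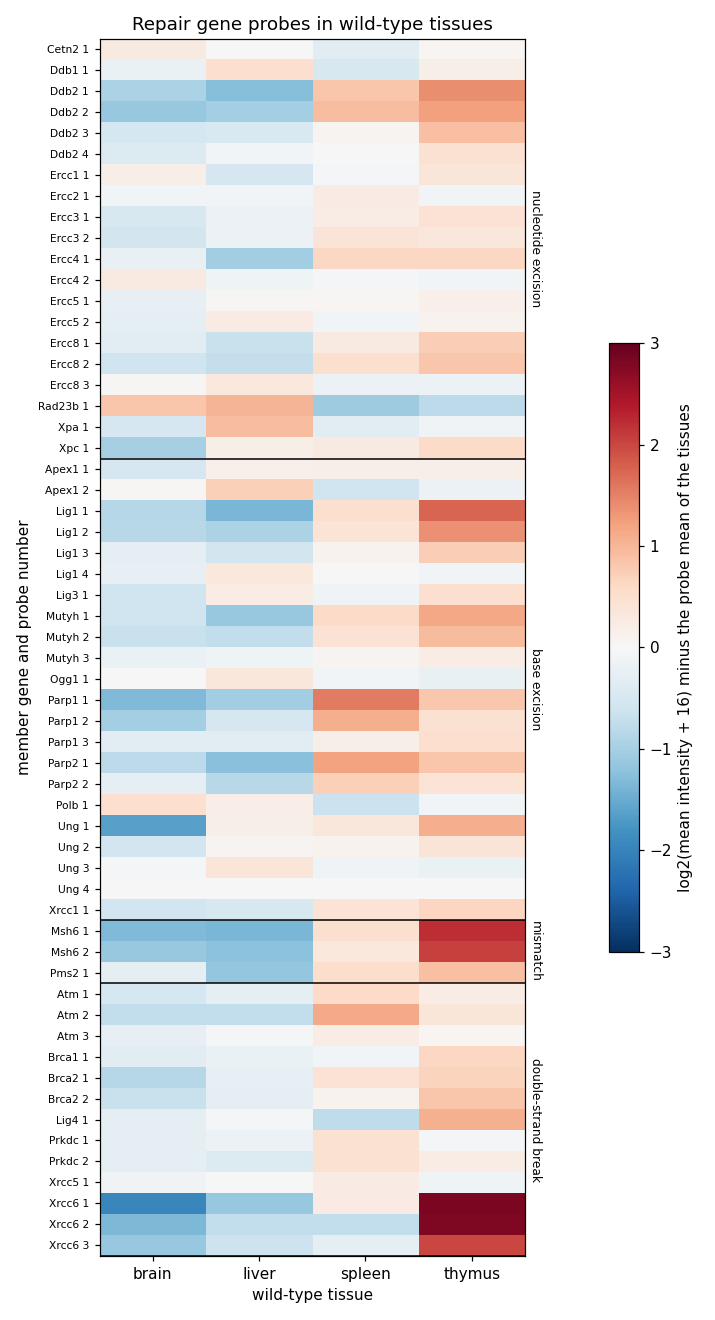
Each row is 1 of the 58 repair probes and each column a wild-type tissue. Colour gives log2(mean quantile-normalized intensity + 16) minus the mean of the 4 tissues for that probe, red for higher. Rows are grouped by repair pathway. The thymus column holds most of the red, deepest for Xrcc6, Msh6 and Lig1, while Rad23b is red in liver and brain. As deposited, 33 of 56 probes were highest in brain.

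Xrcc6, the smaller subunit of Ku, had the widest range among the repair genes when each was represented by its brightest probe. Its 12 thymus arrays ran from 7587 over a median of 9570 to 11461. The 12 spleen arrays ran from 1234 over 1630 to 2288, the 10 liver arrays from 482 over 576 to 765, and the 12 brain arrays from 296 over 338 to 373. No arrays of different tissues overlapped. Thymus exceeded brain by 4.77 on the log2 scale (SE 0.06, limma adjusted p = 1.96e-43) and spleen by 2.58 (SE 0.06, limma adjusted p = 6.13e-34). As deposited the thymus difference to brain was 2.97, and spleen, not brain, was the lowest tissue. Probes 2 and 3 of Xrcc6 were also highest in thymus, at 1532 and 187 on average against 71 and 6.85 in brain. The single probe of Xrcc5, the partner subunit, could not serve for comparison, since it was above noise on 0 of 12 brain, 1 of 10 liver, 5 of 12 spleen and 0 of 12 thymus arrays.

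The promoter windows of Xrcc6, Msh6 and Lig1 are shown because these genes had the widest tissue ranges, and of the Lig1 starts the one with a motif match is given. Each runs from 250 bases before to 50 after a RefSeq start (build GRCm38.p6, plus strand). Capitals mark TTTNGCGC, an E2F-type motif read on either strand. Other forms of the motif were not searched, so an unmarked window is not shown to lack an E2F site. E2F factors switch on genes of DNA replication. A promoter was listed for 26 repair genes, of which 2 (Ercc5 and Lig1) hold the motif at 1 or more starts, against 1.57% of all 27025 genes. Lig1 has 3 starts, and the match lies 26 bases after the one shown.
Xrcc6, chr15:82016119-82016418: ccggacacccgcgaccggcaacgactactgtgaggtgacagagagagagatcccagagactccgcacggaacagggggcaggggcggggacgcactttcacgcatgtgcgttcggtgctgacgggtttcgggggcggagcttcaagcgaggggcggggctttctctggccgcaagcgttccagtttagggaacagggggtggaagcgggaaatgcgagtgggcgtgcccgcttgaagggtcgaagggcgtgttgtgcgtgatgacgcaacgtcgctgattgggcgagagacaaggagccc
Msh6, chr17:87974800-87975099: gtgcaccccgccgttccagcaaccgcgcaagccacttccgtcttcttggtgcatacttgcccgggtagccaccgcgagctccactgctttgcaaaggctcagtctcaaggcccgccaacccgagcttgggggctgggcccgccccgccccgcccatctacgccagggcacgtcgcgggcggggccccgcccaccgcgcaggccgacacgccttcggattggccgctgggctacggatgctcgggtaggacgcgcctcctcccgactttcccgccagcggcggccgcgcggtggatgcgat
Lig1, chr7:13278576-13278875: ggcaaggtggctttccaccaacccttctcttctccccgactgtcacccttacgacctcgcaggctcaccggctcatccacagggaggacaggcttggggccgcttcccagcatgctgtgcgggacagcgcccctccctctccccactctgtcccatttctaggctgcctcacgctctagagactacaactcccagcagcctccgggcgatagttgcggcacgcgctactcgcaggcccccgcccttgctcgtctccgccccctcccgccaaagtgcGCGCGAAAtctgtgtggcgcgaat

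Lig1 encodes the ligase that seals nicks in replication and repair. Its brightest probe ran from 210 over a median of 336 to 570 on the thymus arrays, from 22.9 over 150 to 253 in spleen, from 32.9 over 47.6 to 65.1 in brain and from 10.7 over 29.7 to 43.9 in liver. Thymus arrays overlapped with the brightest spleen arrays only, and the spleen arrays spread widely. Thymus exceeded liver by 3.05 (SE 0.16, limma adjusted p = 1.85e-20) and spleen by 1.34 (SE 0.15, limma adjusted p = 3.45e-10). Spleen minus brain was 1.20 here and −1.02 as deposited. Brain exceeded liver by less, with liver at −0.52 (SE 0.16, limma adjusted p = 0.00515). Probes 2 and 3 of Lig1 shared this order of thymus and spleen, and the dim probe 4 was highest in liver, at 18 on average.

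Msh6, which encodes a protein of mismatch recognition, was likewise brightest in thymus. Its thymus arrays ran from 2335 over a median of 3360 to 4014 and its spleen arrays from 753 over 979 to 1225. Brain ran from 247 over 271 to 316 and liver from 227 over 264 to 302. Thymus stood above spleen without overlap and spleen above the other tissues, but spleen minus brain was 1.78 here and −0.63 as deposited. Thymus exceeded spleen by 1.73 (SE 0.07, limma adjusted p = 1.22e-25), while liver and brain differed by −0.05 (SE 0.07, limma adjusted p = 0.576). Probe 2 of Msh6 gave 2935 in thymus against 870 in spleen. Pms2, an endonuclease subunit of mismatch repair, averaged 114 in thymus, 84.1 in spleen, 41.3 in brain and 14.8 in liver, and was highest in brain as deposited.

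Both poly(ADP-ribose) polymerase genes, whose products mark DNA breaks, were highest in spleen rather than thymus by their brightest probe after joint normalization. Parp2 was highest in brain as deposited. Probe 2 of each gene was also highest in spleen after joint normalization, but probe 3 of Parp1 was highest in thymus. Parp1 ran from 2401 over a median of 2829 to 3549 in spleen and from 1348 over 1590 to 2308 in thymus. In liver it ran from 353 over 451 to 608 and in brain from 322 over 387 to 435. The spleen arrays lay above all others. Thymus was lower than spleen by −0.77 (SE 0.05, limma adjusted p = 5.77e-17), and by −0.16 as deposited. Parp2 ran from 1185 over 1353 to 1631 in spleen, from 802 over 1039 to 1278 in thymus, from 308 over 333 to 383 in brain and from 186 over 220 to 292 in liver. Spleen and thymus overlapped slightly, and their difference of −0.38 (SE 0.07, limma adjusted p = 1.87e-06) turned to 0.20 as deposited, so the order of spleen and thymus is set by the scaling for Parp2.

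Among the glycosylases, Ung, which removes uracil and acts in antibody diversification, ran from 285 over a median of 347 to 441 in thymus. It ran from 139 over 202 to 260 in spleen, from 119 over 176 to 273 in liver and from 32.7 over 42.8 to 48.2 in brain. Thymus lay above and brain below all other arrays, but spleen minus brain turned from 1.96 to −0.35 as deposited. In the joint scaling spleen and liver overlapped and differed by 0.20 (SE 0.09, limma adjusted p = 0.0647). Thymus exceeded brain by 2.70 (SE 0.09, limma adjusted p = 1.18e-27). Mutyh, which removes adenine opposite oxidized guanine, ran from 49.9 over 69.7 to 111 in thymus and from 8.95 over 41.9 to 55.4 in spleen. Spleen minus brain turned from 1.12 to −0.33 as deposited. In brain it ran from 4.67 over 9.55 to 14.3, and it was above noise on 3 of 10 liver arrays. Spleen and thymus overlapped slightly, and thymus exceeded spleen by 0.62 (SE 0.11, limma adjusted p = 3.52e-06). Ogg1, which removes oxidized guanine itself, had one of the smallest ranges, with 8 of 10 liver arrays above noise against 5 of 12 in brain, 3 of 12 in spleen and 2 of 12 in thymus.

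Ddb2, a damage sensor of nucleotide excision repair, ran from 486 over a median of 536 to 722 in thymus and from 327 over 390 to 457 in spleen. It ran from 87.9 over 102 to 113 in brain and from 63.5 over 78.9 to 93.2 in liver. Thymus and spleen did not overlap, and both lay above brain and liver, but spleen minus brain was 1.78 here and −0.63 as deposited. Thymus exceeded spleen by 0.55 (SE 0.06, limma adjusted p = 2.34e-10) and liver by 2.66 (SE 0.07, limma adjusted p = 3.46e-32). All 4 Ddb2 probes were highest in thymus. Of this pathway, Ercc5 and Ercc2 were among the 4 genes of smallest range by their brightest probe. Ercc5 ran from 195 over 237 to 270 in brain and from 248 over 304 to 401 in thymus, a difference of 0.38 (SE 0.07, limma adjusted p = 7.46e-06) that turned to −1.45 as deposited, where all probes shifted by −0.71. Ercc2 was above noise on at most 4 of 12 arrays of spleen and fewer elsewhere, so no order of its tissues was read.

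A few members were not highest in thymus or spleen. Rad23b, which stabilizes the Xpc protein, averaged 483 in liver and 429 in brain against 128 in thymus and 102 in spleen. Polb, the polymerase that fills base excision gaps, averaged 62.5 in brain, 47.3 in liver, 36.5 in thymus and 19.6 in spleen. Xpa, which verifies the lesion, averaged 568 in liver against 200 in brain, and its highest tissue was liver in all 3 lines. Lig4, the ligase of end joining, was highest in thymus but lowest in spleen, and averaged 71.7 in thymus, 25.1 in liver, 18.3 in brain and 8.77 in spleen. For 8 of the 16 genes with several probes all probes had the same highest tissue. They disagreed for Apex1, Ercc3, Ercc4, Ercc5, Ercc8, Lig1, Parp1 and Ung.

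**Figure D2:**
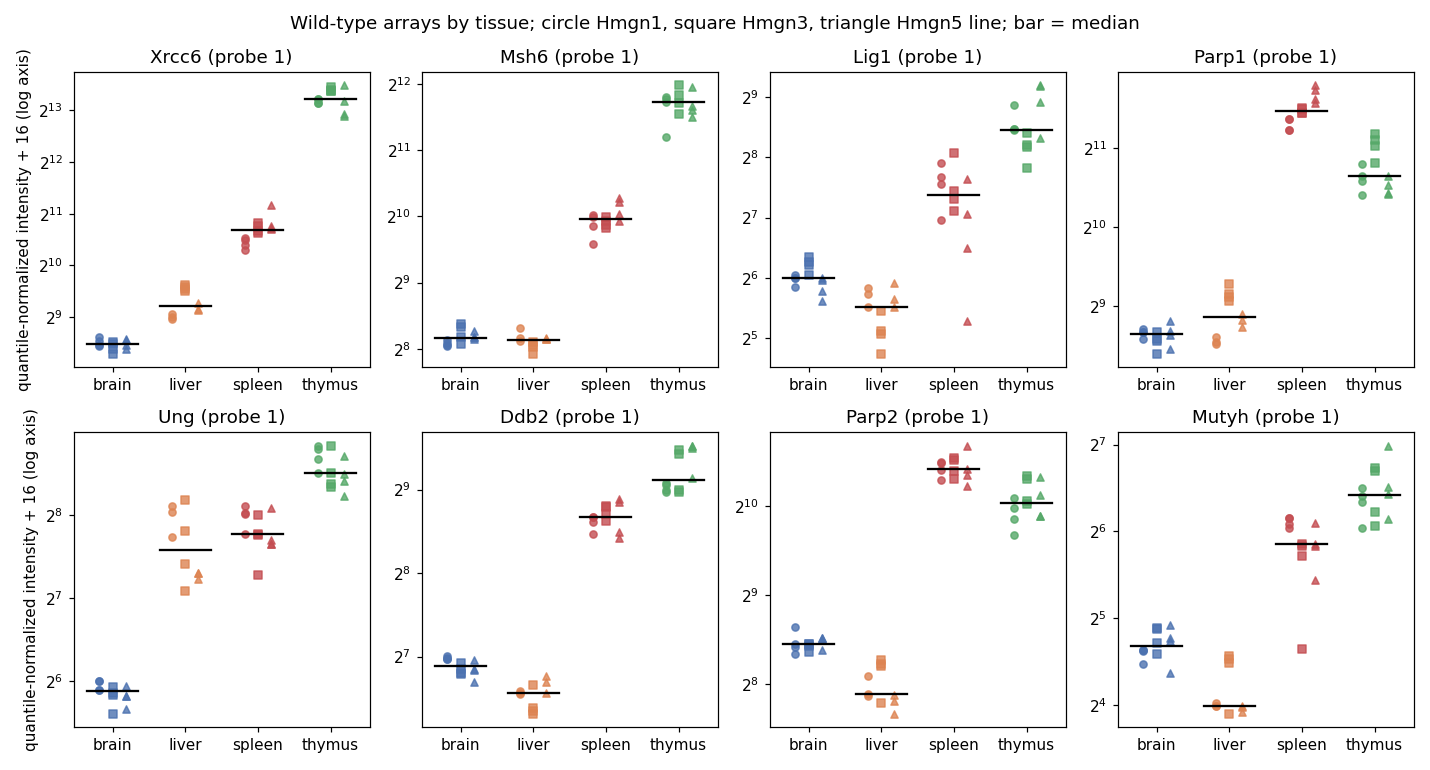
Each panel plots 1 repair gene by its brightest probe. The y axis is quantile-normalized intensity + 16 on a log axis, the x axis the tissue, each point a wild-type array with its shape giving the line, and the bar the median. Thymus is highest for Xrcc6, Msh6, Lig1, Ung, Ddb2 and Mutyh, and spleen for Parp1 and Parp2, although Parp2 is highest in brain as deposited.

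Other repair genes, listed by pathway and not by how they moved, leaned the same way. Of their 121 tested probes 75 were higher in thymus than in brain and 14 lower, with a median difference of 0.48 against 0.09 for all probes. Homologous recombination genes had 18 of 25 tested probes higher and 1 lower, among them Rad54l, a recombination motor protein, with 427 ± 118 (SD, n = 12) in thymus against 10.1 ± 2.69 (SD, n = 12) in brain. Of 14 proliferation genes 23 of 25 tested probes were higher in thymus than in brain and 0 lower, with a median of 3.82, and 22 were higher in thymus than in spleen. Top2a, a topoisomerase of dividing cells, averaged 2158 ± 478 (SD, n = 12) in thymus, 435 ± 147 (SD, n = 12) in spleen and 1.56 ± 2.5 (SD, n = 12) in brain. All counts and levels in this paragraph are from the joint scaling. As deposited, 31 of 56 repair probes described earlier were lower in thymus than in brain and 17 higher. The other repair genes are therefore not shown to be higher in thymus than in brain in the deposited values. The part of dividing cells in the repair gene levels was not tested.

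The mutants were then compared with wild types of their line. Over the 12 comparisons and 627 tests of repair probes, 8 passed at a limma adjusted p under 0.05, all of them in spleen, and the 9 comparisons in brain, liver and thymus held none. In brain 54 repair probes of 29 genes were tested, in liver 47 of 27 genes, in spleen 55 of 31 genes and in thymus 53 of 28 genes. In spleen of the Hmgn1 line 5 of 55 repair probes passed, all lower in mutants, where 3.08% of all 18551 probes passed, 2.01% as lower and 1.08% as higher. These 5 probes belong to Ddb2, counted by several probes, Cetn2 and Parp2, and probes of the same gene are not independent. In the Hmgn3 line 1 rose and 1 fell, where 2.06% of all probes passed, 0.803% as higher and 1.26% as lower. A single probe rose in the Hmgn5 line and 0 fell, where 0.9% of all probes passed, 0.512% as higher and 0.388% as lower. At an unadjusted p under 0.05 there were 17 of 55 repair probes in the Hmgn1 line, 4 higher and 13 lower, against 19.2% of all probes. In the Hmgn3 and Hmgn5 lines there were 9 each, against 15.2% and 14.5%. The median difference of the tested repair probes in spleen was −0.04, −0.03 and −0.06 in the Hmgn1, Hmgn3 and Hmgn5 line, against 0.01, 0.01 and 0.00 for all probes.

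**Figure D3:**
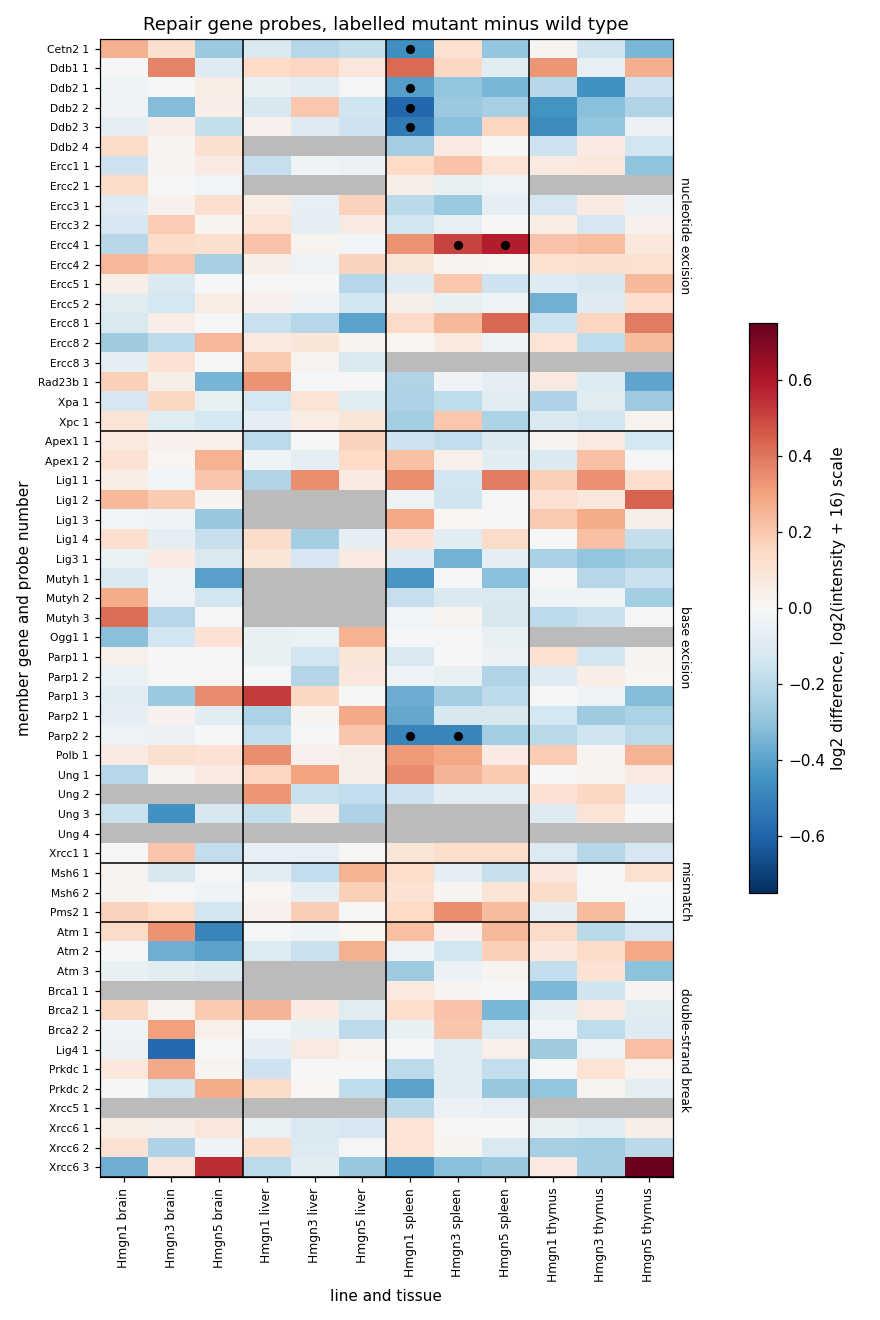
Rows are the 58 repair probes by pathway and columns the 12 line and tissue comparisons. Colour gives the change in log2(intensity + 16) in labelled mutants against their wild types, red for higher in mutants, and grey marks probes not tested in a tissue. Black dots mark the 8 tests with adjusted p under 0.05, which all lie in the spleen columns.

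Ddb2 was lower in mutant spleens of the Hmgn1 line by 3 of its 4 probes. Probe 1 gave 188, 195, 196 and 169 in the wild types and 155, 136, 117 and 139 in the mutants, so the groups did not overlap and the mutants were lower. It differed by −0.41 (SE 0.11, limma adjusted p = 0.0376). Probe 2 gave 64.6, 51.9, 48.9 and 47.3 in the wild types and 47.3, 22.3, 29.7 and 23.8 in the mutants. The groups touched at one array, and the difference was −0.59 (SE 0.16, limma adjusted p = 0.0434). Probe 3 gave 23.1, 22.7, 22.2 and 18.3 against 15.2, 16.4, 7.76 and 3.13, without overlap (−0.53, SE 0.13, limma adjusted p = 0.0321). Probe 4 was above noise on 3 wild-type and 0 mutant arrays of 4 each and did not pass (limma adjusted p = 0.261).

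In the other spleens Ddb2 did not pass. Probe 1 gave 128, 138, 121 and 137 in the wild types of the Hmgn3 line and 114, 96.6, 111 and 93.9 in its mutants (−0.30, SE 0.11, limma adjusted p = 0.159). It gave 98.7, 137, 132 and 94.4 against 89.6, 100.2, 86.3 and 72.5 in the Hmgn5 line (−0.34, SE 0.11, limma adjusted p = 0.113). The groups of the Hmgn3 line did not overlap and those of the Hmgn5 line did. Probe 2 differed by −0.28 in the Hmgn3 line (SE 0.16, limma adjusted p = 0.441) and by −0.25 in the Hmgn5 line (SE 0.16, limma adjusted p = 0.522). Probe 3 differed by −0.32 in the Hmgn3 line (SE 0.13, limma adjusted p = 0.237) and ran the other way in the Hmgn5 line, with 7.72, 6.45, 4.12 and 4.57 in the wild types and 11.7, 9.82, 6.63 and 5.25 in the mutants (0.16, SE 0.13, limma adjusted p = 0.671). Between the lines the effect on probe 3 had an unadjusted p of 0.00385 in the limma F test and an adjusted p of 0.76. The mutant effect on probe 1 did not pass a test between the 3 lines (limma F test, adjusted p = 0.999) or between the 4 tissues of the Hmgn1 line (limma F test, adjusted p = 0.154). In thymus of the Hmgn3 line Ddb2 probe 1 was the repair probe of smallest p, with 242, 235, 169.5 and 167 against 129.9, 157, 136 and 147, a difference of −0.45 (SE 0.12) with an adjusted p of 0.363 by limma.

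Cetn2, which encodes the centrin of the Xpc complex, gave 11.2, 13.7, 13.2 and 13.3 in the wild-type spleens of the Hmgn1 line and 5.82, 4.16, 3.00 and 7.04 in the mutants. The groups did not overlap, all 8 arrays were above noise, and the difference was −0.46 (SE 0.12, limma adjusted p = 0.0352). These are among the lowest intensities of any repair probe that passed. In the Hmgn3 line only 2 wild-type and 3 mutant arrays were above noise, with a difference of 0.11 (SE 0.12, limma adjusted p = 0.746), and in the Hmgn5 line 4 and 2, with −0.29 (SE 0.12, limma adjusted p = 0.233). The effect on Cetn2 did not pass a test between lines (limma F test, unadjusted p = 0.00721, adjusted p = 0.793).

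Parp2, whose product helps seal single-strand breaks, was lower in mutant spleens of the Hmgn1 and the Hmgn3 line by its probe 2. In the Hmgn1 line this probe gave 153, 132, 156 and 136 in the wild types and 118, 91.3, 88.1 and 94.6 in the mutants, without overlap (−0.50, SE 0.12, limma adjusted p = 0.028). Its values in the Hmgn3 line were 90.2, 91.8, 89.7 and 94.8 against 62.5, 54.0, 76.6 and 51.8, again without overlap (−0.49, SE 0.12, limma adjusted p = 0.0341). Its values in the Hmgn5 line were 74.3, 78.5, 73.7 and 50.5 against 51.7, 61.8, 42.7 and 64.3, with overlap (−0.26, SE 0.12, limma adjusted p = 0.312). The brighter probe 1 of Parp2 did not pass. It gave 689, 688, 648 and 604 against 585, 507, 506 and 410.1 in the Hmgn1 line (−0.39, SE 0.12, limma adjusted p = 0.0712), −0.12 in the Hmgn3 line (SE 0.12, limma adjusted p = 0.726) and −0.12 in the Hmgn5 line (SE 0.12, limma adjusted p = 0.746). In the Hmgn3 line the probes thus disagree on whether Parp2 changed.

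Ercc4, which encodes the nuclease subunit of the cut on the 5′ side, was higher in mutant spleens of the Hmgn3 and the Hmgn5 line. In the Hmgn3 line it gave 38.7, 54.8, 51.7 and 53 in the wild types and 67.3, 83.3, 85.0 and 72.4 in the mutants (0.51, SE 0.12, limma adjusted p = 0.0339). In the Hmgn5 line it gave 22.1, 35, 29.1 and 39.7 against 61.1, 50.5, 52.9 and 55.1 (0.59, SE 0.12, limma adjusted p = 0.0271). In both lines all mutant arrays lay above all wild-type arrays. In the Hmgn1 line it gave 58.6, 71.4, 88.7 and 88.9 against 82.1, 104, 108 and 109, which overlapped and did not pass (0.34, SE 0.12, limma adjusted p = 0.127). The mutant effect did not pass a test between lines (limma F test, adjusted p = 0.996). Probe 2 of Ercc4 was above noise on at most 3 of 4 arrays of a spleen group and gave no second reading. The start region of Ercc4 is shown because this was the repair gene that passed in 2 spleens as higher. Capitals mark an NRF1-type motif read on either strand (GCGCA, then any base, then GCGC), here at position −94 from the start, which 6 of 26 repair genes with a promoter and 5.19% of all 27025 genes hold.
Ercc4, chr16:13109486-13109785: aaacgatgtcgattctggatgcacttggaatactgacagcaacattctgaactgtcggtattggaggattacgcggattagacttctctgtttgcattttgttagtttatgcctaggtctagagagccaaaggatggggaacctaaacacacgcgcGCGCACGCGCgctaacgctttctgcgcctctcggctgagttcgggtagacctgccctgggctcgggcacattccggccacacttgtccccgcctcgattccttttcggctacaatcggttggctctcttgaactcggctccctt

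**Figure D4:**
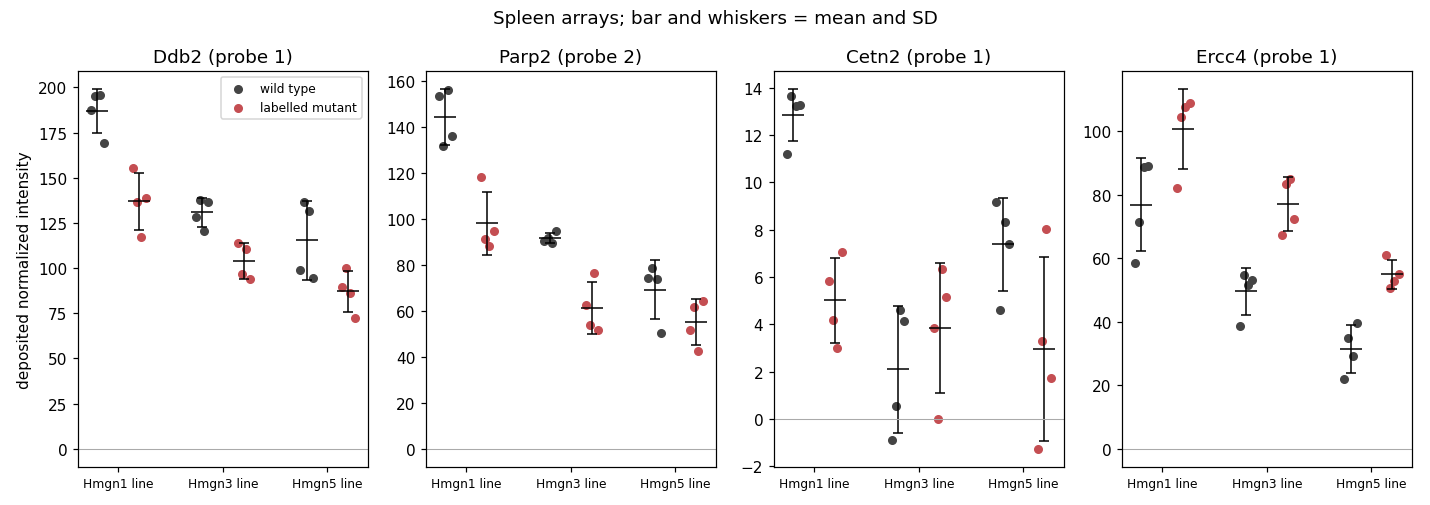
Each panel plots 1 repair probe that passed in spleen. The y axis is the deposited normalized intensity, points are single arrays, the bar and whiskers give mean and SD, and wild types (grey) stand beside labelled mutants (red) for each line. Levels are comparable within a line only. Mutant means lie below wild-type means in each line for Ddb2 probe 1 and Parp2 probe 2 and above them for Ercc4. Arrays overlap in the Hmgn5 line for Ddb2 and Parp2 and in the Hmgn1 line for Ercc4. The Cetn2 mean is lower in mutants of the Hmgn1 and Hmgn5 lines and slightly higher in the Hmgn3 line, but its difference between lines did not pass.

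These calls rested on few arrays and on the shared spread of 24 spleen arrays. With the 8 arrays of a line alone, or with a floor of 1 in place of the offset of 16, 0 repair probes passed in each of the 3 spleens. The count was also 0 with a running array number as a linear covariate. That number counts mutants after wild types and nearly follows genotype, so its fits cannot decide whether the calls hold. Leaving out 1 array at a time gave 0 to 10 in the Hmgn1 line, 0 to 2 in the Hmgn3 line and 0 to 2 in the Hmgn5 line.

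Some cell type markers moved with genotype in spleen. The macrophage list of 5 genes summed to 5978 to 7409 in wild types and 3704 to 6012 in mutants of the Hmgn1 line, overlapping slightly, with Lyz2 passing as lower in the Hmgn1 line (−1.04, SE 0.26, limma adjusted p = 0.0315) and in the Hmgn3 line (−1.02, SE 0.26, limma adjusted p = 0.0385). The median macrophage probe differed by −0.06, 0.24 and 0.03 in the Hmgn1, Hmgn3 and Hmgn5 line, so the sums do not describe the list's typical probe. The same sum ran from 3491 to 5766 against 2568 to 3411 in the Hmgn3 line and from 3488 to 4803 against 2459 to 3142 in the Hmgn5 line, and 1 of 9 tested macrophage probes passed in the Hmgn1 and in the Hmgn3 line. The B cell list of 5 genes summed to 4793 to 5859 against 3840 to 4811 in the Hmgn1 line, with Cd79b passing as lower (−0.85, SE 0.23, limma adjusted p = 0.045). B cell sums were 2979 to 3406 against 2583 to 3177 in the Hmgn3 line and 2695 to 2959 against 2271 to 3160 in the Hmgn5 line. The median B cell probe differed by −0.06, 0.01 and 0.04 in the 3 lines, and 1, 0 and 0 of 6 tested passed. T cell sums over 5 genes were 1638 to 2457 against 2125 to 2973 in the Hmgn1 line, 1260 to 1826 against 1613 to 1927 in the Hmgn3 line and 980.1 to 1339 against 1555 to 1731 in the Hmgn5 line. Of the T cell list only Cd4 passed in the Hmgn3 line, as higher (0.84, SE 0.19, limma adjusted p = 0.0239). It was dim, with a mean of 7.78 in wild types and 26.7 in mutants. Only Cd3d passed in the Hmgn5 line, also as higher (0.72, SE 0.15, limma adjusted p = 0.0252), and no T cell probe passed in the Hmgn1 line. These single probes do not describe the list as a whole. Of the listed probes 7 to 8 of 10 for macrophages, 5 of 7 for B cells and 3 to 4 of 5 for T cells were above noise on all arrays of a spleen group. The part of these shifts in the repair gene differences was not tested.

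Some spleen arrays also held pancreatic acinar genes. Their sum over 6 genes ran from 46.1 to 33931, and it exceeded 10000 on 1 wild-type and 2 mutant arrays of the Hmgn1 line and on 1 of each in the Hmgn5 line. Without these 5 arrays, an alternative chosen after seeing the data, 0 repair probes passed in the Hmgn1 and the Hmgn5 line and 1 in the Hmgn3 line.

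Other repair genes gave few calls in spleen, where 3.08%, 2.06% and 0.9% of all probes passed in the Hmgn1, Hmgn3 and Hmgn5 line. Of 106 tested probes 1 was higher in the Hmgn1 line, Mus81, a nuclease of recombination intermediates (46.3 ± 5.42 in mutants against 28.4 ± 4.8 in wild types, SD, n = 4 each, limma adjusted p = 0.0307). Lower in the Hmgn3 line were 3 probes: Rpa3, a subunit of the single-strand binding protein (−0.55, SE 0.15, limma adjusted p = 0.0463), Aptx, which cleans blocked DNA ends (5.34 ± 2.69 in wild types against a mutant mean of 0.272, under the noise limit, limma adjusted p = 0.0265), and Hus1, of the checkpoint clamp (−0.54, SE 0.10, limma adjusted p = 0.0141). Polh, a bypass polymerase, was lower in the Hmgn5 line (−0.66, SE 0.14, limma adjusted p = 0.0309). In brain, liver and thymus 0 of these probes passed by limma. At an unadjusted p under 0.05 there were 5, 11 and 12 of 101 in brain of the Hmgn1, Hmgn3 and Hmgn5 line, against 3.88%, 10.7% and 8.94% of all probes. In liver there were 7, 5 and 11 of 91, against 8.1%, 4.86% and 11.1%, and in thymus 4, 7 and 14 of 107, against 8.37%, 6.31% and 9.16%. Among p53 targets in spleen 1 of 21 tested probes passed in the Hmgn1 and in the Hmgn3 line, against 3.08% and 2.06% of all probes. Both times this was Ccng1, a cyclin induced by p53. It was lower by −0.54 (SE 0.15, limma adjusted p = 0.0447) and by −0.74 (SE 0.15, limma adjusted p = 0.0169). The median p53 target probe differed by 0.03 and −0.03 in these lines. In spleen 0 of 21 proliferation probes passed in any line by limma, with 0 to 3 at an unadjusted p under 0.05.

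In brain no repair probe passed by limma, and 1, 4 and 3 of 54 reached an unadjusted p under 0.05 in the Hmgn1, Hmgn3 and Hmgn5 line, against 3.88%, 10.7% and 8.94% of all probes. By adjusted p 0.0%, 0.0104% and 0.0208% of all probes passed there. The repair probe of smallest p in the Hmgn1 line was Mutyh probe 3, above noise on 0 wild-type and 2 mutant arrays of 4 each, which gave at least 1.09-fold more in mutants (limma adjusted p = 1). For the Hmgn3 line it was Ddb1, the adaptor that pairs with Ddb2, with 144, 208, 180.0 and 191 in the wild types and 255, 216, 277 and 204 in the mutants, which overlapped (0.37, SE 0.11, limma adjusted p = 0.257). For the Hmgn5 line the probe of smallest p was Atm, the kinase that signals double-strand breaks, with 239, 219, 247 and 241 against 221, 253, 116 and 107. Of the mutant arrays 2 were low and the others overlapped with the wild types, and the difference of −0.49 (SE 0.21) had an adjusted p of 0.525 by limma.

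In liver no repair probe passed by limma, and 3, 2 and 2 of 47 reached an unadjusted p under 0.05, against 8.1%, 4.86% and 11.1% of all probes. By adjusted p 0.0318%, 0.0% and 0.419% of all probes passed in the Hmgn1, Hmgn3 and Hmgn5 line. Rad23b gave 604, 591 and 663 in wild-type and 705, 797, 852 and 800.0 in mutant livers of the Hmgn1 line, without overlap (0.34, SE 0.11, limma adjusted p = 0.332). Parp1 probe 2 gave 185, 189.95, 189 and 184 against 150.3, 157, 165 and 161 in the Hmgn3 line, again without overlap (−0.22, SE 0.07, limma adjusted p = 0.804). Msh6 gave 349, 347 and 354 against 477, 386, 435 and 400.1 in the Hmgn5 line (0.26, SE 0.10, limma adjusted p = 0.284).

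In thymus no repair probe passed by limma, and 4, 2 and 3 of 53 reached an unadjusted p under 0.05, against 8.37%, 6.31% and 9.16% of all probes. By adjusted p 0.0494%, 0.011% and 0.0933% of all probes passed. In the Hmgn1 line Ercc5 probe 2, of the nuclease that cuts on the 3′ side, gave 162, 196.5, 162 and 149 against 129, 133, 131 and 113, without overlap (−0.36, SE 0.10, limma adjusted p = 0.283). In the Hmgn5 line Rad23b gave 108, 100, 88.8 and 156 against 67.0, 95.5, 76.1 and 86.0, with overlap (−0.39, SE 0.13, limma adjusted p = 0.271). Skeletal muscle genes, 7 in all, summed to 86.6 to 169 in wild-type and 75.7 to 5032 in mutant thymus of the Hmgn1 line, to 41.4 to 231 and 89.7 to 4085 in the Hmgn3 line, and to 133 to 3359 and 106 to 315 in the Hmgn5 line. Their part in these values was not tested.

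Whether a mutation acted differently on repair genes across lines or tissues was tested directly. By adjusted p 0 repair probes passed a difference between lines in any tissue (limma F test). Of all probes 0.0052%, 0.171%, 0.0162% and 0.0494% passed in brain, liver, spleen and thymus. At an unadjusted p under 0.05 there were 6 of 54, 6 of 47, 4 of 55 and 2 of 53 repair probes. Between tissues 0 repair probes passed by adjusted p in any line (limma F test). Of all probes 0.364%, 0.154% and 0.314% passed in the Hmgn1, Hmgn3 and Hmgn5 line. At an unadjusted p under 0.05 there were 12 of 56, 3 of 55 and 3 of 55 repair probes. The share of all probes at an unadjusted p was not counted for these F tests, so no excess is read from the unadjusted counts. The spleen calls are therefore not shown to be particular to spleen or to a line. The median SE of a repair probe was 0.14 in brain, 0.12 in spleen and 0.15 in thymus.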

How the data were processed

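Biotin-labelled cRNA from total RNA was hybridised to Illumina mouse arrays, 1 array per mouse and tissue. The deposited values are linear, background-subtracted intensities that the authors normalized, and each line and tissue was found to share its own distribution. The sources used here do not give the method, and GenomeStudio 2011.1 is named per the submitters' processing notes. A further table of 188 columns, which match no labels, was not used. Of 25697 probes 23978 have 1 gene symbol, 0 several and 1719 none in the platform annotation. Gene symbols there can be old.

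Values below 0, 19.1% to 29.1% of an array, were set to 0 and 16 was added before log2. The noise of an array was the root mean square of its values below 0, and a probe was tested in a tissue where it exceeded 1.64 times that noise on 3 or more arrays. This stands in for the detection p-values first planned. The 6 groups of a tissue were fitted together in limma 3.58.1 (R 4.3.3), with two-sided tests and Benjamini-Hochberg adjustment over all probes tested. Wild-type tissues were compared after quantile normalization of the 46 arrays, averaged over lines, with the mouse as a random block. A gene with several probes was represented by its brightest. Differences of the mutant effect between lines or tissues were limma F tests.

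The repair genes and all lists were chosen with earlier results of these data known. Array values are given for each repair probe that passed, otherwise for the one of smallest p in a comparison, and by tissue for the 8 genes with the largest and the 4 with the smallest range. Lists of other repair genes (83 of 101 matched), p53 targets, proliferation and cell type markers were counted. Replicate numbers in the labels were not taken to pair the mice, since in no line and tissue did every pair of same-numbered arrays correlate above 0.1. In spleen of the Hmgn1 line replicates 2 and 3 correlated at 0.41 and 0.48, and replicates 1 and 4 at −0.15 and −0.21. Whether same-numbered arrays shared handling was not tested. Promoter sequences are from RefSeq (GRCm38.p6).

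The fits were tested on simulated data. Alternatives were a floor of 1, other filters, joint quantile normalization, array weights, a line fitted alone and a replicate block. Further ones were a running array number per line as a linear covariate, with mutants numbered after wild types, and each array left out. Chosen after seeing the data, 5 spleen arrays with acinar sums over 10000 were also left out.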

Additional observations from a re-analysis of the deposited data

How the results depend on the processing

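The spleen counts of repair probes depended on the processing, and the cause was not tested. In the Hmgn1 line 5 probes passed, against 0 with a floor of 1, with the lines quantile-normalized together, with the replicate number as a linear covariate, with the line fitted alone or without the 5 acinar arrays, 1 with no filter, 8 with array weights and 0 to 10 with 1 array left out. In the Hmgn3 line 2 passed, against 0 with a floor of 1, no filter, the linear covariate or the line alone, 1 without the acinar arrays and 0 to 2 with 1 array left out. In the Hmgn5 line 1 passed, against 0 with a floor of 1, the linear covariate, the line alone, without the acinar arrays or without the wild-type mouse placed by elimination, and 0 to 2 with 1 array left out. With the replicate number as a block 6, 2 and 1 repair probes passed in these spleens. With it, as without it, 0 repair probes passed in brain, liver and thymus. Each of the 8 calls held in 1 to 3 of 8 fits with 1 array left out. With the linear covariate, Ddb2 probe 3 in Hmgn1 spleen turned to 0.10, probe 2 went from −0.59 to −0.013 and Atm in Hmgn5 brain to 0.24. This covariate numbers the mutants after the wild types and nearly follows genotype. It can therefore take up a mutant effect, and its fits do not decide whether the differences hold. In wild types, thymus minus brain of Ercc5 turned to −1.45 and spleen minus brain of Ercc2 to −0.044 as deposited.

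Over all probes the 572, 383 and 167 calls in spleen of the Hmgn1, Hmgn3 and Hmgn5 line became 25, 41 and 48 with a floor of 1, 373, 150 and 94 with no filter, 865, 599 and 423 with the replicate block, 3, 5 and 56 with the line alone and 4, 226 and 3 without the acinar arrays. Joint quantile normalization gave 108 in the Hmgn1 and 334 in the Hmgn5 line, array weights 1000 and 327, and the Hmgn5 line had 89 without the mouse placed by elimination. Probes near noise, such as those of Xrcc5, Ercc2 and Ogg1, have no reliable order of levels.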
